A study of Mus musculus with 4 samples.

Results

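The 46 genes described here encode the core of the DNA replication machinery, and all 46 were found by symbol, 1 row each, in a deposited table of 34745 mouse genes. They were chosen by name, from the origin recognition complex to the enzymes that make deoxynucleotides. The table covers 4 RNA libraries of CD4+ T cells from C57BL/6 mice of wild type genotype, 1 for each group. Th17 and Treg cells had been cultured for 3 days under their own differentiation conditions (the labels name no cytokines), and Th0 cells had been stimulated with antibodies to CD3 and CD28 for 3 days. The naive library came from splenic CD4+ T cells used without culture, and no further sort is named for it. Because each group had 1 library, no difference below has a replicate check. Every interval is a 95% counting interval, which covers counting error only.

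Before a cell copies its genome, the origin recognition complex with CDC6 and CDT1 loads rings of the MCM helicase onto DNA, a step called licensing that geminin blocks outside G1. In S phase CDC45 and the GINS complex turn the loaded ring into the active helicase, polymerase alpha-primase lays down primers, and polymerases epsilon and delta extend them with the sliding clamp PCNA. Resting T cells sit outside the cycle, and stimulation through the antigen receptor with costimulation brings them into rapid division. Many of these genes are classical targets of the E2F transcription factors, which are held back by the retinoblastoma family of pocket proteins.

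Levels are given as CPM, read counts scaled to a common library size after correcting each library with a TMM normalization factor. The total count was 12414372 in Th17, 10256627 in Treg, 10272122 in Th0 and 11901949 in naive, so that 1 read was worth between 0.0762 and 0.114 CPM. All 8 T cell marker genes were read in all 4 libraries, with summed levels of 3232 to 4044 CPM. The 48 marker genes of B, plasma, myeloid, erythroid, CD8 T and NK cells summed to 774 CPM in Th17, 781 in Treg, 706 in Th0 and 10628 in naive. The naive sum came mainly from the lists of macrophages and monocytes (34.2 CPM in Th17, 49.4 in Treg, 31.9 in Th0 and 4530.1 in naive), B cells (216 CPM in Th17, 105 in Treg, 449 in Th0 and 3812 in naive) and neutrophils (4.04 CPM in Th17, 4.42 in Treg, 1.26 in Th0 and 1443 in naive), and those of dendritic and erythroid cells were also highest in naive. The sums of the other lists were not. CD8 T and NK cell markers summed to 202 CPM in Th17, 254 in Treg, 118 in Th0 and 117 in naive. Plasma cell markers summed to 300 CPM in Th17, 340 in Treg, 94.6 in Th0 and 239.5 in naive. The largest entries in the cultures were Gzma (156 CPM in Th17, 190 in Treg, 44.2 in Th0 and 12.5 in naive) and Xbp1 (281, 326, 79.0 and 130). Within these lists Klrb1c, Ncr1, Prf1, Jchain and Prdm1 were each highest in naive, while Cd8a, Cd8b1, Gzma, Sdc1 and Xbp1 were not. Of the 48, 9 were at 0 in Th17, 9 in Treg, 8 in Th0 and 0 in naive. Csf1r, the receptor gene of macrophages, had 3.89 CPM in Th17, 4.87 in Treg, 0.801 in Th0 and 771 in naive. The part of such cells in any comparison with the naive library was not tested. Mitochondrial genes took 3.49% of counts in Th17, 3.69% in Treg, 3.83% in Th0 and 4.71% in naive. Exon bases of 17 members also belong to another annotated gene, and no label states whether counting used the strand, so the source of shared reads is uncertain. In such bulk RNA, fewer cells that replicate and less RNA per replicating cell cannot be told apart.

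The replication genes as a group had their lowest summed level in the naive library and their highest in the Th0 library. The sum was 2392 CPM in Th17, 3099 in Treg, 4172 in Th0 and 1950 in naive. In the deposited counts this was 0.253% of reads in Th17, 0.335% in Treg, 0.355% in Th0 and 0.201% in naive. The order of the 4 sums was the same under each of 4 scalings, but the lead of Th0 depended on the scaling. With TMM, 0 members had their highest level in Th17, 6 in Treg, 39 in Th0 and 1 in naive, whereas with library totals 21 were highest in Treg and 24 in Th0. The lowest level was that of Th17 for 11 members, of Treg for 0, of Th0 for 3 and of naive for 32.

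**Figure D1:**
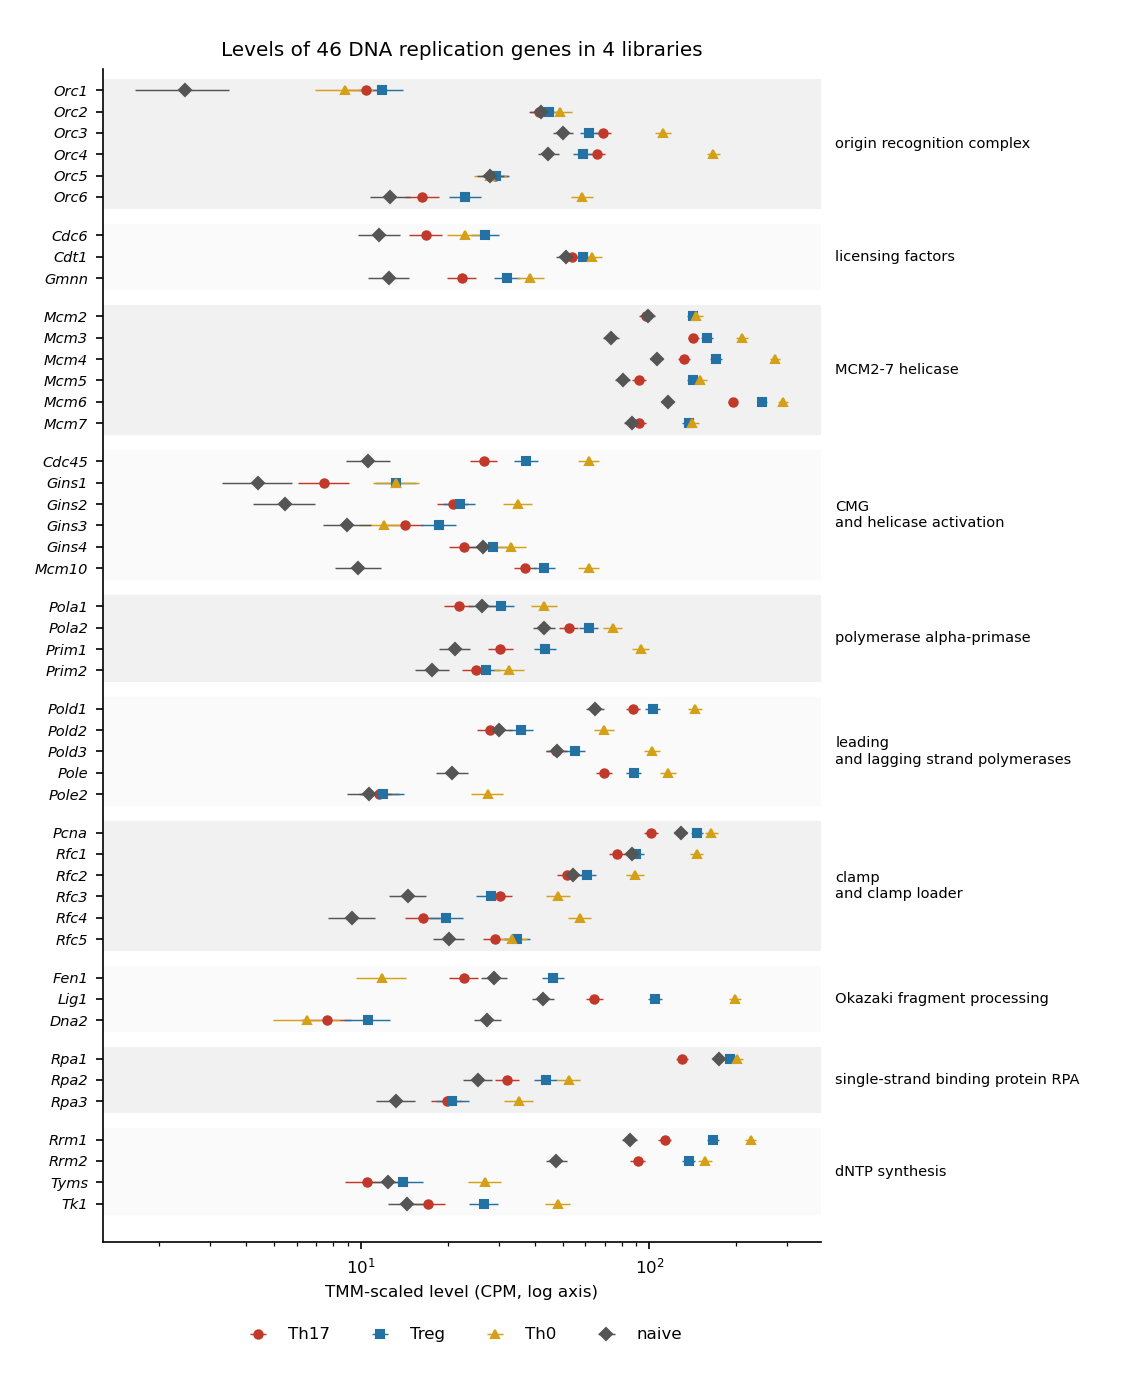
Scaled level (CPM, log axis) of each of the 46 replication genes in the Th17, Treg, Th0 and naive libraries, 1 point per library, with lines for 95% Poisson counting intervals. Rows are grouped by role; Th0 points lie farthest right for 39 members, and Dna2 is the 1 member highest in naive.

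The rule for calling a gene required that its CPM plus 1 differ at least 2-fold and that the exact interval of its count ratio exclude equality. In Th0 over naive, 27 of the 46 members (58.7%) were called higher, where 18.5% of all 13995 genes tested were. Another 2 members (4.35%) were called lower, against 27.2% of all genes, and 17 were not called. The median log2 ratio of the members was 1.13, and that of all genes was -0.13. Under library totals 21 members were called higher and the members' median was 0.86. The split of all calls then moved too, since 40.5% of called genes were higher under TMM and 29.6% under library totals. Relative to the median of all genes the members' median was 1.27 under TMM and 1.24 under library totals.

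At these genes the cultures grown under differentiation conditions stood closer to the naive library, which also held the markers of other cells given above. In Treg over naive, 14 members (30.4%) were called higher, against 14.9% of all 14350 genes tested, and 1 member, against 16.9%, was called lower. Their median log2 ratio was 0.67, against -0.02 for all genes. In Th17 over naive, 6 members (13.0%) were called higher and 1 lower, where 15.5% and 17.7% of all 14523 genes tested were. The share of members called higher was thus near the background in this comparison, and the median log2 ratio was 0.37, against -0.01 for all genes. Under library totals the members' median was 0.41 in Th17, 0.74 in Treg and 0.86 in Th0 over naive, with 6, 16 and 21 called higher. Treg and Th0 thus lay nearer each other than under TMM. These 3 comparisons share the naive library, so a deviation of that library would appear in all of them.

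**Figure D2:**
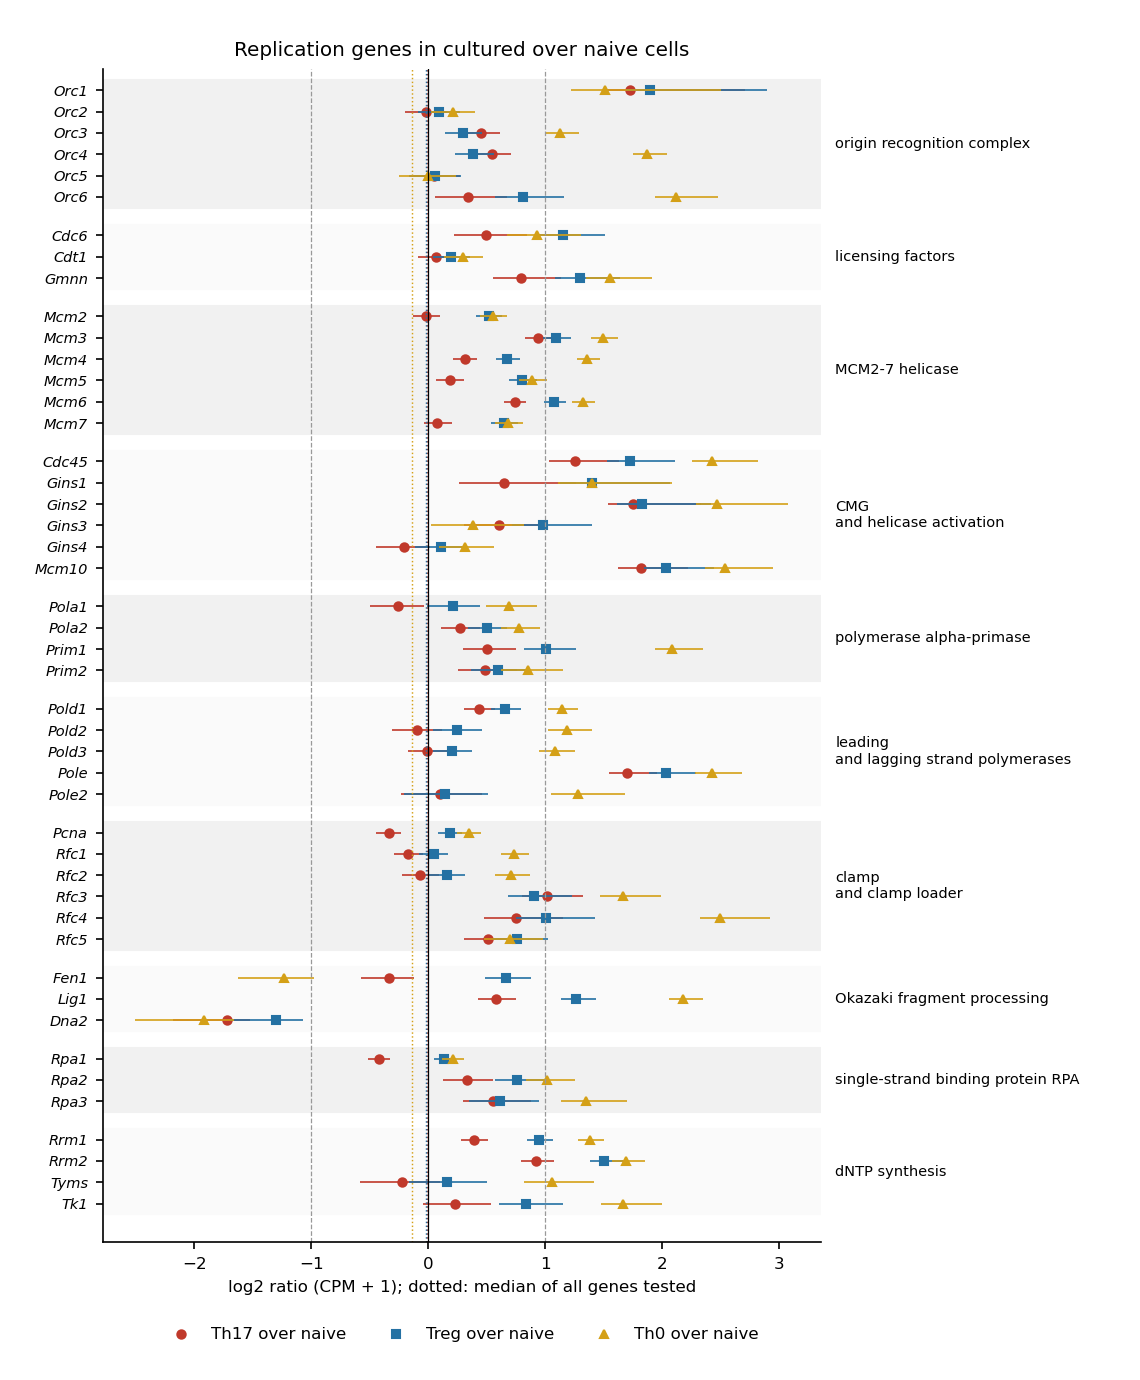
Log2 ratios (CPM plus 1) of the 46 replication genes in Th17, Treg and Th0 over naive, with 95% counting intervals of the count ratio as lines. Dashed lines mark 2-fold and dotted lines the median of all genes tested; 27 members lie past 2-fold in Th0, 14 in Treg and 6 in Th17, and Dna2 lies below it in all 3.

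Set against the stimulated Th0 culture, many members were lower in Th17 cells and few passed the rule in Treg cells. In Th17 over Th0, 12 members (26.1%) were called lower, against 12.4% of all 13324 genes tested, and 0 were called higher, against 20.1%. The median log2 ratio of the members was -0.71 and that of all genes was 0.09. In Treg over Th0, 5 members (10.9%) were called lower, where 12% of all 13138 genes tested were, and 1 member was called higher, where 20.2% were. The members' median log2 ratio was -0.40, against 0.08 for all genes. Both comparisons share the Th0 library and moved with the scaling of that library. Under library totals 6 members were called lower in Th17 and 2 in Treg, with medians of -0.40 and -0.05. The same scaling moved the share of higher genes among all calls to 79.3%, against 61.9% under TMM, in Th17 over Th0, and to 81.8%, against 62.8%, in Treg over Th0. Relative to the median of all genes, the members' median was -0.80 in Th17 over Th0 and -0.47 in Treg over Th0 under TMM, and -0.77 and -0.45 under library totals. The sign was the same under all 5 scalings for 42 of the 46 members in the Th17 comparison and for 29 in the Treg comparison.

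Between Th17 and Treg cells no member met the 2-fold rule under TMM, and the small differences mostly ran one way. In Th17 over Treg, 0 of 46 members were called, where 1.91% of all 13346 genes tested were called higher and 1.24% lower. So few of all genes were called that this count says little about the members. The median log2 ratio of the members was -0.34, against -0.00 for all genes. By the counting interval alone, 34 members (73.9%) were lower in Th17 and 2 were higher, where 22% and 21.4% of all genes were, though such intervals are narrow for well expressed genes. The sign depended little on the scaling, because 45 of the 46 members had the same sign under all 5 scalings. Fen1, at a log2 ratio of -0.996, was however called lower under library totals and upper quartile scaling.

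**Figure D3:**
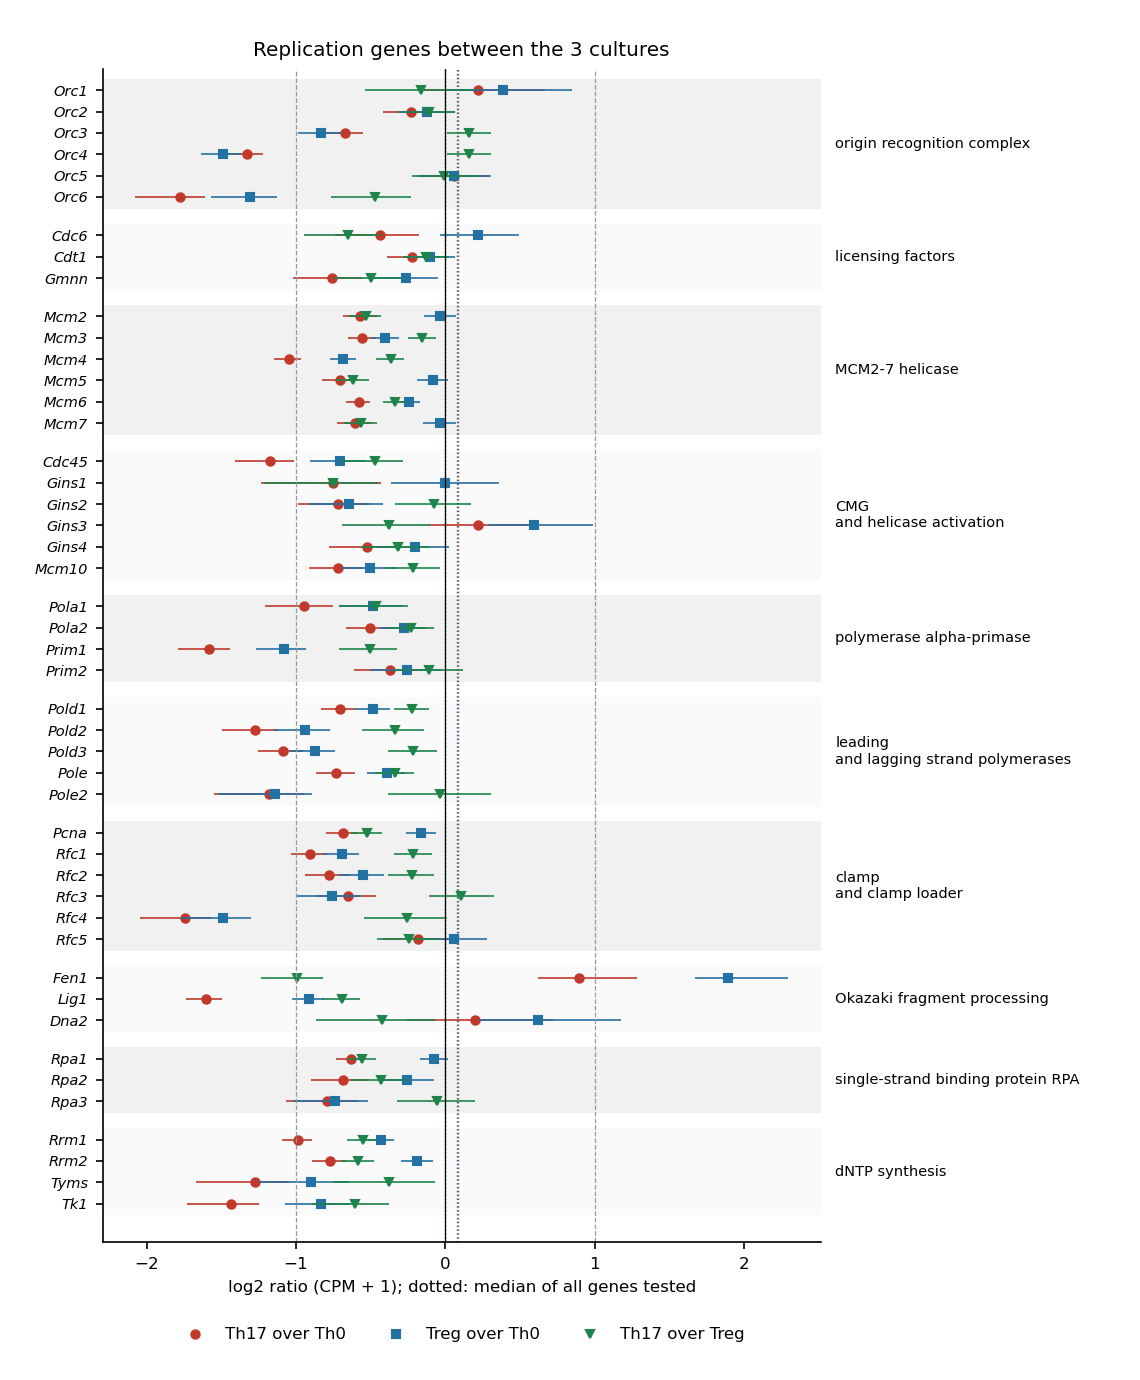
Log2 ratios (CPM plus 1) of the 46 replication genes in Th17 and Treg over Th0 and in Th17 over Treg, with 95% counting intervals of the count ratio as lines and dashed lines at 2-fold. Fen1 lies farthest to the right in Treg over Th0, and 12 members lie past 2-fold to the left in Th17 over Th0.

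Among the 6 subunits of the origin recognition complex, which marks origins on DNA, the differences were uneven. Orc1 (chr4:108579423-108614833, GRCm38), the subunit whose level is known to vary over the cycle in human cells, had 10.4 CPM in Th17, 11.8 in Treg, 8.81 in Th0 and 2.45 in naive. It was 4.26-fold higher in Th17 (interval 2.85 to 6.56), 4.82-fold higher in Treg and 3.60-fold higher in Th0 than in naive, and it was called in all 3. The naive value rests on 30 reads, the lowest count of any member in any library, and the Th0 call was lost at a pseudocount of 5 CPM. Orc2, a core subunit, stayed within a narrow range, at 41.5 CPM in Th17, 44.8 in Treg, 48.9 in Th0 and 42.1 in naive, and Orc5 was flatter still, at 29.2 CPM in Th17, 29.3 in Treg, 28.0 in Th0 and 28.1 in naive. About 30% of the exon bases of Orc2 also belong to Nif3l1 on the other strand.

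Orc4 and Orc6 stood out in the Th0 library. Orc4 had 65.6 CPM in Th17, 58.7 in Treg, 166 in Th0 and 44.7 in naive, with Th0 the 1 high library. Set against Th0, the Th17 library was 2.54-fold lower and the Treg library 2.84-fold lower. Orc6, the smallest subunit, had 16.3 CPM in Th17, 23.0 in Treg, 58.4 in Th0 and 12.7 in naive, and it was 3.58-fold lower in Th17 than in Th0 (interval 3.05 to 4.22), the lowest log2 ratio of any member in that comparison. Exon bases of Orc6 (6.93%) are shared with Vps35 on the other strand, which had 123 CPM in Th17, 118 in Treg, 305 in Th0 and 119 in naive. Orc3 had 69.2 CPM in Th17, 61.9 in Treg, 111 in Th0 and 50.2 in naive, and its call in Th0 over naive was lost under library totals and upper quartile scaling. As counts, Orc1 reads per Orc2 read were 0.251 in Th17, 0.264 in Treg, 0.180 in Th0 and 0.0583 in naive.

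Of the licensing factors, Gmnn differed more than its target Cdt1. Gmnn, which encodes geminin, the inhibitor of CDT1, had 22.4 CPM in Th17, 32.1 in Treg, 38.7 in Th0 and 12.5 in naive. It was 3.10-fold higher in Th0 and 2.57-fold higher in Treg than in naive. Cdt1, which brings the MCM ring to origins, had 53.9 CPM in Th17, 58.9 in Treg, 63.2 in Th0 and 51.3 in naive and passed 2-fold in no comparison. The ratio of Cdt1 to Gmnn reads was therefore 2.40 in Th17 (interval 2.10 to 2.76), 1.83 in Treg (1.61 to 2.09), 1.63 in Th0 (1.42 to 1.88) and 4.10 in naive (3.43 to 4.93). Only the Treg and Th0 intervals of that ratio overlapped. Cdc6, the ATPase that completes the loading machine, had 16.8 CPM in Th17, 27.0 in Treg, 23.0 in Th0 and 11.6 in naive. Its Treg level was 2.32-fold higher than that in naive and was called, and its Th0 ratio over naive missed the 2-fold rule at a log2 of 0.93.

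The 6 genes of the MCM2-7 ring were among the most abundant members and kept near even proportions. Their summed level was 749 CPM in Th17, 993 in Treg, 1209 in Th0 and 561 in naive. Per kb of the longest annotated transcript, the highest of the 6 was 1.64 times the lowest in Th17, 1.39 times in Treg, 1.83 times in Th0 and 1.37 times in naive. The FPKM of the authors, which use other gene lengths, gave wider spreads of 3.36, 2.99, 4.70 and 2.68 times in the same order of libraries. The evenness therefore depends on the length used.

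Within the ring Mcm3, Mcm4 and Mcm6 were called higher in Th0 than in naive, and Mcm2, Mcm5 and Mcm7 were not. Mcm3 had 142 CPM in Th17, 158 in Treg, 209 in Th0 and 73.7 in naive and a Th0 level 2.84-fold higher than naive (interval 2.62 to 3.08). Mcm4 had 131 CPM in Th17, 169.8 in Treg, 273 in Th0 and 106 in naive, and it was the 1 gene of the ring called lower in Th17 than in Th0, at 2.08-fold lower, a call lost under library totals and upper quartile scaling. Mcm6 had 194 CPM in Th17, 245 in Treg, 291 in Th0 and 116 in naive, the highest CPM of all 46 members in Th17, Treg and Th0. Mcm2 showed the smallest ratio of the 6 in Th0 over naive, with 97.5 CPM in Th17, 141 in Treg, 145 in Th0 and 98.5 in naive. Mcm5 had 91.9 CPM in Th17, 142 in Treg, 150.2 in Th0 and 80.7 in naive and Mcm7 had 92.0 CPM in Th17, 137 in Treg, 140.3 in Th0 and 87.0 in naive. For Mcm2, Mcm5 and Mcm7 the Treg and Th0 levels under TMM lay close together, above those of Th17 and naive. A processed copy, Gm5487, matches Mcm7 at 97.8% over 2132 bases, so reads of the pair may have been split.

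**Figure D4:**
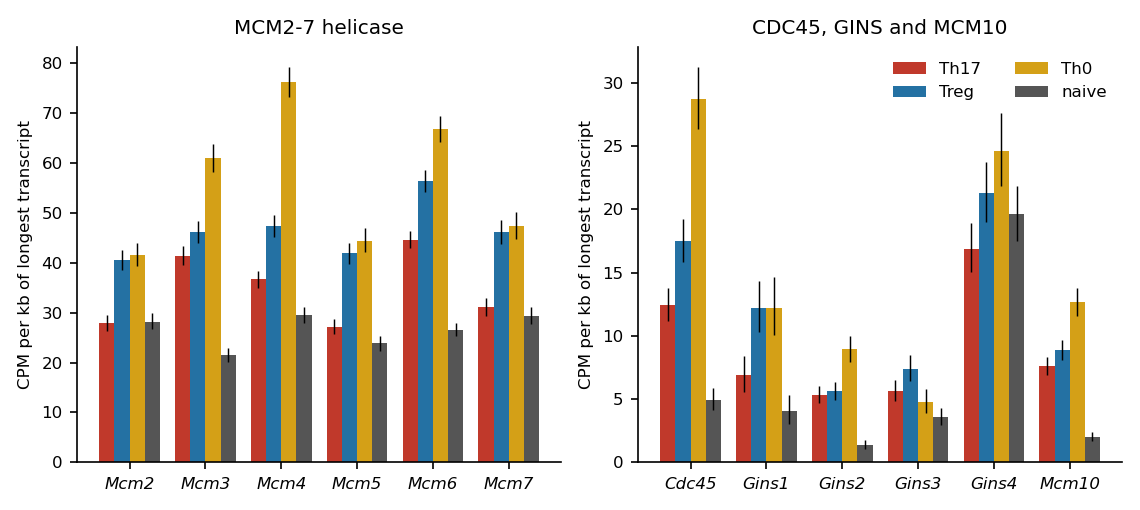
Levels per kb of the longest annotated transcript (CPM per kb) for the MCM2-7 genes (left) and for Cdc45, the 4 GINS genes and Mcm10 (right) in the Th17, Treg, Th0 and naive libraries; lines are 95% Poisson counting intervals. By this length the MCM genes stand within 1.37 to 1.83 times of each other in each library, while the factors on the right span 3.17 to 14.0 times. By the FPKM of the authors these spans were 2.68 to 4.70 times and 4.85 to 21.3 times, and in Th0 they were 4.70 and 4.88 times.

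The factors that turn the loaded ring into a moving helicase held some of the highest ratios over naive. Cdc45, part of the active helicase, had 26.7 CPM in Th17, 37.4 in Treg, 61.6 in Th0 and 10.6 in naive, and it was 2.51-fold higher in Th17, 3.52-fold higher in Treg and 5.80-fold higher in Th0 than in naive. Mcm10 (chr2:4989714-5012791), which binds the helicase at the step of activation, had 37.0 CPM in Th17, 43.2 in Treg, 61.6 in Th0 and 9.80 in naive. With the pseudocount of 1 CPM its log2 ratio was 2.53 in Th0 over naive and 1.82 in Th17 over naive, the highest of the 46 members in both. By the fold without a pseudocount it was 6.28-fold higher in Th0, below Gins2 at 6.38, and 3.78-fold higher in Th17, below Orc1 at 4.26 and Gins2. Both genes were called in all 3 cultures over naive.

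The 4 GINS genes, whose products form a single tetramer, had unlike ratios. Gins2 had 20.8 CPM in Th17, 22.0 in Treg, 34.9 in Th0 and 5.47 in naive and was 6.38-fold higher in Th0 than in naive (interval 4.88 to 8.44). This value is uncertain, because 67.3% of its exon bases are shared with Gse1 on the other strand, which had 97.8 CPM in Th17, 128 in Treg, 179 in Th0 and 118 in naive. Gins1 had 7.47 CPM in Th17, 13.3 in Treg, 13.3 in Th0 and 4.41 in naive and was called higher in Treg and Th0 than in naive, though not at a pseudocount of 5 CPM. Gins3 had 14.2 CPM in Th17, 18.7 in Treg, 12.0 in Th0 and 8.98 in naive, with its highest level in Treg. Gins4 had 22.8 CPM in Th17, 28.7 in Treg, 33.2 in Th0 and 26.5 in naive and passed 2-fold in no comparison. Per kb, Gins4 was 14.0 times Gins2 in naive and 3.77 times Gins2 in Treg.

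The primase subunits and the polymerase alpha subunits that they bind differed as well. Prim1, the catalytic primase, had 30.4 CPM in Th17, 43.5 in Treg, 93.2 in Th0 and 21.2 in naive. It was 4.41-fold higher in Th0 than in naive and 3.06-fold lower in Th17 than in Th0 (interval 2.72 to 3.46). Its partner Prim2 had 25.1 CPM in Th17, 27.1 in Treg, 32.6 in Th0 and 17.6 in naive and met the 2-fold rule in no comparison. Pola1, the catalytic polymerase subunit, had 21.9 CPM in Th17, 30.6 in Treg, 43.2 in Th0 and 26.3 in naive, with Th17 the low library and Th0 the high one. Its accessory subunit Pola2 had 52.4 CPM in Th17, 61.5 in Treg, 74.6 in Th0 and 43.2 in naive. Neither Pola1 nor Pola2 met the 2-fold rule under TMM.

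All 5 genes of the leading and lagging strand polymerases were called higher in Th0 than in naive, and 1 of them, Pole, was called in the other cultures too. Pole, the catalytic subunit of polymerase epsilon, had 69.6 CPM in Th17, 88.1 in Treg, 116 in Th0 and 20.7 in naive. It was 3.35-fold higher in Th17, 4.25-fold higher in Treg and 5.59-fold higher in Th0 than in naive. Pole2, the second subunit of that enzyme, had 11.6 CPM in Th17, 11.9 in Treg, 27.5 in Th0 and 10.7 in naive, high in Th0 alone. The Pole2 reads per Pole read were 0.166 in Th17, 0.135 in Treg, 0.237 in Th0 and 0.516 in naive. Pold1, the catalytic subunit of polymerase delta, had 87.8 CPM in Th17, 103 in Treg, 144 in Th0 and 64.8 in naive. Its partners were likewise high in Th0, with 28.1 CPM in Th17, 35.8 in Treg, 69.6 in Th0 and 30.1 in naive for Pold2 and 47.5 CPM in Th17, 55.2 in Treg, 102 in Th0 and 47.7 in naive for Pold3. The calls of Pold1, Pold2 and Pold3 in Th0 over naive were lost under library totals, and that of Pold3 also under upper quartile scaling.

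Pcna, the sliding clamp, had the highest level per kb of any member in all 4 libraries. By the FPKM of the authors, however, Mcm4 and Mcm6 were above it in Th17, Treg and Th0, and Rrm1 was above it in Th0. Pcna had 101 CPM in Th17, 146 in Treg, 164 in Th0 and 128 in naive, and its Th0 level was 1.27-fold higher than its naive level. In Th17 it was 1.27-fold lower than in naive (interval 1.18 to 1.36), and none of its ratios met the 2-fold rule. A copy named Pcna-ps2 matches it at 99.2% over 781 bases. The clamp loader, the RFC complex, held both level and variable subunits. Rfc4 (chr16:23113943-23127737) had 16.4 CPM in Th17, 19.7 in Treg, 57.2 in Th0 and 9.31 in naive, and it was 6.15-fold higher in Th0 than in naive. It was 3.49-fold lower in the Th17 library and 2.90-fold lower in the Treg library than in Th0. Its exons share 12.7% of their bases with Eif4a2, a translation factor gene on the other strand, which had 424 CPM in Th17, 415 in Treg, 734 in Th0 and 510.2 in naive. Rfc3 had 30.3 CPM in Th17, 28.1 in Treg, 48.2 in Th0 and 14.5 in naive and was called higher in Th17 and Th0 than in naive, the Th17 call being lost under DESeq2 size factors. Rfc1, the large subunit, had 77.3 CPM in Th17, 89.9 in Treg, 146 in Th0 and 87.1 in naive. Rfc2 had 51.7 CPM in Th17, 60.6 in Treg, 89.3 in Th0 and 54.1 in naive, and Rfc5, which Gm12870 matches at 96.5% over 982 bases, had 29.3 CPM in Th17, 34.8 in Treg, 33.4 in Th0 and 20.2 in naive. None of these 3 subunits met the 2-fold rule.

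The enzymes that finish Okazaki fragments went different ways. Lig1, the ligase that seals them, had 64.5 CPM in Th17, 105 in Treg, 198 in Th0 and 42.9 in naive. It was 4.61-fold higher in Th0 than in naive (interval 4.18 to 5.09) and 3.07-fold lower in Th17 than in Th0. Fen1 (chr19:10199132-10204169), the nuclease that cuts the displaced flaps, had 22.8 CPM in Th17, 46.4 in Treg, 11.8 in Th0 and 29.0 in naive, with Treg the high library and Th0 the low one. It was 2.46-fold lower in Th0 than in naive and 3.94-fold higher in Treg than in Th0 (interval 3.18 to 4.92), the 1 member called higher in that comparison. An antisense gene, Gm10143, covers 78.8% of the exon bases of Fen1 and had at most 0.327 CPM in the 4 libraries. Dna2 (chr10:62947026-62974185), a nuclease and helicase for long flaps, had 7.62 CPM in Th17, 10.6 in Treg, 6.52 in Th0 and 27.4 in naive. It was 3.60-fold lower in Th17, 2.60-fold lower in Treg and 4.21-fold lower in Th0 than in naive, and it was the 1 member called lower in all 3. Its intervals were 2.87 to 4.55, 2.10 to 3.24 and 3.17 to 5.67 in the same order. Between the cultures its ratios did not reach 2-fold.

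RPA, the complex of 3 proteins that coats single-stranded DNA, differed in its smaller subunits. Rpa1, which binds DNA, had 129 CPM in Th17, 191 in Treg, 201 in Th0 and 174 in naive, the highest CPM of any member in naive. It was 1.34-fold lower in Th17 than in naive. Rpa2 had 32.2 CPM in Th17, 43.6 in Treg, 52.4 in Th0 and 25.4 in naive, and Rpa3, which Gm6195 matches at 95.1% over 325 bases, had 19.9 CPM in Th17, 20.7 in Treg, 35.3 in Th0 and 13.2 in naive. Both were called higher in Th0 than in naive, and the call of Rpa2 was lost under library totals and upper quartile scaling.

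The enzymes that supply deoxynucleotides were all 4 called higher in Th0 than in naive. Rrm1, the large subunit of ribonucleotide reductase, had 113 CPM in Th17, 166 in Treg, 224 in Th0 and 85.5 in naive. Rrm2, its small subunit, made mainly in S phase, had 91.0 CPM in Th17, 137 in Treg, 156 in Th0 and 47.6 in naive, and it was 2.87-fold higher in Treg and 3.27-fold higher in Th0 than in naive. The Rrm2 reads per Rrm1 read were 0.807 in Th17, 0.824 in Treg, 0.695 in Th0 and 0.557 in naive, with intervals of Th17 and Treg that overlapped. Tk1, the thymidine kinase of the salvage route, had 17.1 CPM in Th17, 26.6 in Treg, 48.1 in Th0 and 14.5 in naive and was 2.80-fold lower in Th17 than in Th0. Tyms, which makes thymidylate from deoxyuridylate, had 10.5 CPM in Th17, 14.0 in Treg, 26.9 in Th0 and 12.4 in naive. Its calls in Th0 over naive and in Th17 over Th0 were lost under library totals, and the former also under upper quartile scaling. Copies named Tyms-ps, Gm48455 and Gm6593 match Tyms or Rrm2 at 95.1% to 96.2% over 373 to 864 bases.

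The promoters were searched for E2F words, since E2F sites are known from many S phase genes. RefSeq promoter windows of GRCm38.p6, from 250 bases before to 50 after a start site, were found for 38 of the 46 members, with 46 windows in all. Each window was searched on both strands for the E2F words TTTGGCGC, TTTCCCGC, TTTGCCGC and TTTCGCGC, which can overlap each other on opposite strands. A word was found in 15 of the 46 windows (32.6%), against 744 of 32851 windows (2.26%) of all genes. Counted by gene, 15 of 38 members (39.5%) had a word, against 2.60% of all genes. The members' windows were richer in G and C, with a median of 60.7% against 52.7%. Between the members' lower and upper quartiles a word was found in 10 of 22 member windows (45.5%) against 3.26% of all windows. That band was not an exact match, since its median was 60.7% in member windows and 57.7% in all windows. The box CCAAT was found in 54.3% of member windows against 37.4%, and the word TTTGAA, the core of the cell cycle genes homology region, in 10.9% against 17.9%. These are matches of letters and not shown to be bound sites, and a part of E2F in the levels was not tested.

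Members with and without a word had overlapping ratios. Of the 15 members with a word, 9 were called higher in Th0 over naive, with a median log2 ratio of 1.13 and a range of 0.30 to 2.18. Of the 23 members with a window and no word, 13 were called higher and 2 lower, with a median of 1.06 and a range of -1.92 to 2.53. The 200 bases before the start site are shown for 3 members with a word and for the members with the highest and the lowest log2 ratio (CPM plus 1) in Th0 over naive, Mcm10 and Dna2, which had none. Capitals mark the E2F words, and each sequence is given 5′ to 3′ on the strand of its gene. The windows lie at chr8:75109309-75109508 on the plus strand for Mcm5, chr1:128359706-128359905 on the minus strand for Mcm6 and chr4:108579254-108579453 on the plus strand for Orc1. Those of Mcm10 and Dna2 lie at chr2:5012792-5012991 on the minus strand and chr10:62946829-62947028 on the plus strand.
Mcm5: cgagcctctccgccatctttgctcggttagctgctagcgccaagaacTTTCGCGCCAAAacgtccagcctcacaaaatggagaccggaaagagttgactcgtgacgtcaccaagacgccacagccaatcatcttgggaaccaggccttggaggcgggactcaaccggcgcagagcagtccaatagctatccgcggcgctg
Mcm6: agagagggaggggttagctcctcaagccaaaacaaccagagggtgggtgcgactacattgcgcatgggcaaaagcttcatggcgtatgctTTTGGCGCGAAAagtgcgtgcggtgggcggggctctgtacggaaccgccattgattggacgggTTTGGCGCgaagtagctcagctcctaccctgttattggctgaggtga
Orc1: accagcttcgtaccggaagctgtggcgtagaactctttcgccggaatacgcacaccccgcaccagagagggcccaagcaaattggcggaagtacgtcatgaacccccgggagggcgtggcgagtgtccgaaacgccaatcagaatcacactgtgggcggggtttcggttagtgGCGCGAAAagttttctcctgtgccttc
Mcm10: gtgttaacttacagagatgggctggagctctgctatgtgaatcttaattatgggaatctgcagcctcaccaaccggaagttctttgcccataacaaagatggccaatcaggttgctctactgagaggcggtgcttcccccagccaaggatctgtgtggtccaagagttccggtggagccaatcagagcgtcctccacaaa
Dna2: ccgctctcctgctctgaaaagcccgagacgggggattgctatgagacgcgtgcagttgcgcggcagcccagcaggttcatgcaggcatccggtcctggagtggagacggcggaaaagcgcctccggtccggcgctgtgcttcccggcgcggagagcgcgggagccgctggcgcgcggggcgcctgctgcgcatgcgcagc
In Mcm5 a pair of words on opposite strands overlaps, with first bases at -153 and -149 from the start site. Mcm6 holds such an overlapping pair at -110 and -106 and a single word at -47. In Orc1 the word lies on the other strand, at -27.

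Beyond the members, 86 genes of 10 lists that surround replication were read in the same way, and all 86 were tested. In Th17 over naive 32 (37.2%) were called higher and 1 (Dck) lower, where 15.5% and 17.7% of all genes were. In Treg over naive 37 (43.0%) were called higher and 0 lower, where 14.9% and 16.9% of all genes were. In Th0 over naive 45 (52.3%) were called higher and 4 (Chtf8, Pole4, Tk2 and Mcm9) lower, where 18.5% and 27.2% of all genes were. In Th17 over Th0 4 were called higher and 23 (26.7%) lower, where 20.1% and 12.4% of all genes were, and in Treg over Th0 4 and 19 (22.1%), where 20.2% and 12% were. In Th17 over Treg 1 (1.16%) was called higher and 1 (1.16%) lower, near the 1.91% and 1.24% of all genes. Markers of dividing cells had larger median ratios over naive than the replication genes. Of 10 such markers 7 (70%) were called higher in Th17, 8 (80%) in Treg and 9 (90%) in Th0 than in naive. Their median log2 ratios were 2.18, 2.35 and 2.70 in the same order. Not called in Th17 over naive were Ccne1, Ccne2 and Cdk2, with log2 ratios of 0.85, -0.22 and 0.31. Ccne2 was not called in Treg (0.14) or Th0 (0.79) over naive either, and Cdk2 was not called in Treg (0.42). Ccnb1, the cyclin of mitotic entry, had 61.1 CPM in Th17, 61.0 in Treg, 53.2 in Th0 and 4.33 in naive. Ccna2, the cyclin of S and G2 phases, had 157 CPM in Th17, 199.8 in Treg, 404 in Th0 and 35.2 in naive, and Bub1, a spindle checkpoint kinase, had 58.4 CPM in Th17, 65.0 in Treg, 236 in Th0 and 11.0 in naive. In Th17 over Treg 0 of the 10 markers were called, but so few of all genes were that this count says little. The median log2 ratio of the markers was -0.23.

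**Figure D5:**
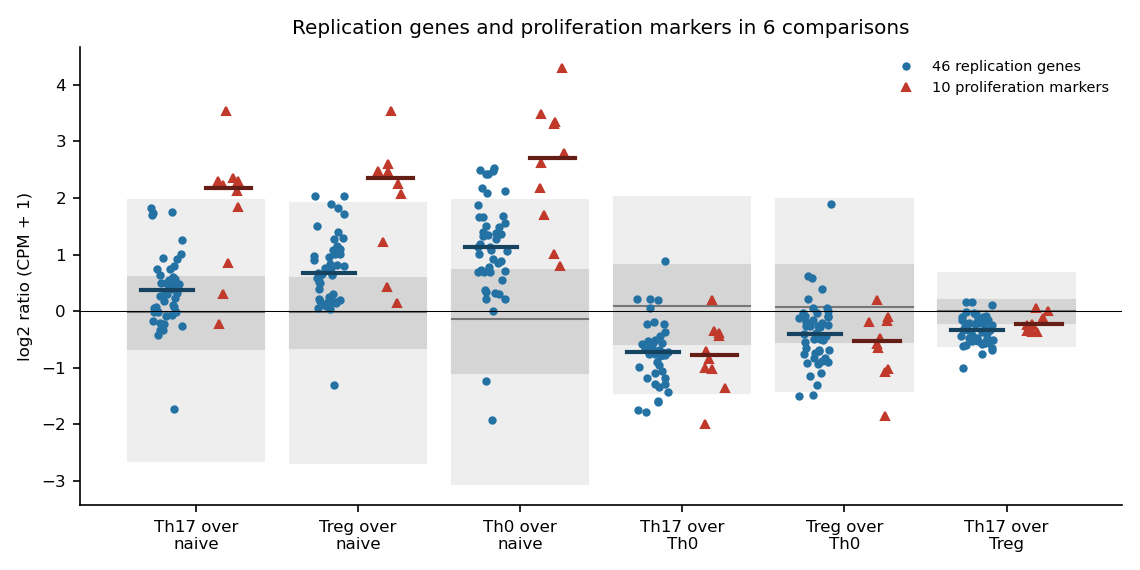
Log2 ratios (CPM plus 1) of the 46 replication genes (circles) and 10 proliferation markers (triangles) in 6 comparisons; short bars are their medians. Dark and light boxes run between the quartiles and between the 5th and 95th percentiles of all genes tested, with the median as a line; the markers' median is 2.70 and the members' 1.13 in Th0 over naive.

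Of all genes tested, 15.5% were called higher in Th17, 14.9% in Treg and 18.5% in Th0 than in naive. Of the 12 fork and checkpoint genes, 4 (33.3%) were called higher in Th17, 4 (33.3%) in Treg and 7 (58.3%) in Th0 than in naive. Clspn, the adaptor that activates the checkpoint kinase, had 37.1 CPM in Th17, 60.6 in Treg, 151 in Th0 and 13.7 in naive, and Chek1, that kinase, had 25.4 CPM in Th17, 29.2 in Treg, 53.3 in Th0 and 6.21 in naive. Of the 9 genes of origin firing, 2 (22.2%) were called higher in Th17, 3 (33.3%) in Treg and 5 (55.6%) in Th0. With 9 genes, the share in Th17 lay near that of all genes. Ticrr, which helps load CDC45, had 45.7 CPM in Th17, 48.8 in Treg, 115 in Th0 and 10.5 in naive, and Cdc7, the kinase that fires origins, had 38.6 CPM in Th17, 41.5 in Treg, 154 in Th0 and 24.7 in naive. Of the 4 genes of RFC-like loaders, 1 (25%) was called higher in Th17, 3 (75%) in Treg and 3 (75%) in Th0 than in naive. Another 1 (25%) was called lower in Th0, where 27.2% of all genes were. Atad5, which unloads PCNA, had 43.0 CPM in Th17, 50.8 in Treg, 185 in Th0 and 15.9 in naive, and Th0 was its high library. Chtf8, a subunit of the CTF18 loader, went the other way, with 152 CPM in Th17, 162 in Treg, 75.2 in Th0 and 186 in naive. It was 2.47-fold lower in Th0 than in naive and was called higher in Th17 and Treg than in Th0. The 13 E2F and pocket protein genes were mixed, with 6 (46.2%) called higher in each culture over naive and 0 lower. E2f2, an activating E2F, had 129.5 CPM in Th17, 146 in Treg, 297 in Th0 and 62.0 in naive, and E2f3 had 38.0 CPM in Th17, 40.7 in Treg, 15.7 in Th0 and 14.2 in naive, highest in Treg and Th17. The pocket protein gene Rb1 had 229 CPM in Th17, 232 in Treg, 405 in Th0 and 103 in naive, highest in Th0.

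Among the remaining lists, the chromatin assembly genes had 3 of 9 (33.3%) called higher in Th17, 4 (44.4%) in Treg and 5 (55.6%) in Th0 than in naive. The shares of all genes were 15.5%, 14.9% and 18.5% in the same order. Hells, a chromatin remodeller, had 55.6 CPM in Th17, 58.7 in Treg, 204 in Th0 and 16.6 in naive, and Uhrf1, which guides maintenance methylation behind the fork, had 129 CPM in Th17, 146 in Treg, 170.1 in Th0 and 44.5 in naive. Of 9 other genes of polymerases and their partners, 4 (44.4%) were called higher in each culture over naive. These were Pold4, Polh, Polk and Primpol, and of them only Pold4 encodes a subunit of polymerase delta or epsilon. Pold4, the small subunit of polymerase delta, had 246 CPM in Th17, 247 in Treg, 313 in Th0 and 41.6 in naive. Pole4, a small subunit of polymerase epsilon, had 45.4 CPM in Th17, 49.1 in Treg, 26.6 in Th0 and 57.0 in naive and was called lower in Th0 than in naive, at 2.15-fold lower. Of the 8 RNase H2, exonuclease and topoisomerase genes, 2 (25%) were called higher in Th17, 3 (37.5%) in Treg and 1 (12.5%) in Th0 than in naive. With 8 genes, the share in Th0 lay near the 18.5% of all genes. The 1 gene called in Th0 was Top2a, with 809 CPM in Th17, 890 in Treg, 2217 in Th0 and 115 in naive. Of the 10 other genes of deoxynucleotide supply, 2 (20%) were called higher in Th17, 1 (10%) in Treg and 4 (40%) in Th0 than in naive. With 10 genes, the shares in Th17 and Treg lay near the 15.5% and 14.9% of all genes. In this list Dck, the deoxycytidine kinase, was called lower in Th17, at 2.38-fold lower, and Tk2, the mitochondrial thymidine kinase, was called lower in Th0, at 2.04-fold lower. Of the 2 alternative MCM genes, Mcm8 had 15.0 CPM in Th17, 17.3 in Treg, 21.9 in Th0 and 4.74 in naive and was called higher in all 3 cultures, while Mcm9 had 21.3 CPM in Th17, 21.1 in Treg, 13.4 in Th0 and 29.4 in naive and was called lower in Th0.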

How the data were processed

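The labels' protocols state that total RNA was extracted with TRIzol and sequenced on an Illumina HiSeq platform. Per the submitters' processing notes, Bowtie2, RSEM and the builds GRCm38.p6 and mm10 were used; no version is named, and strandedness and annotation are not stated there. The authors deposited whole-number counts per gene, with no normalization, and FPKM values, which per the file headers belong to the same 4 libraries. The FPKM equalled count over length and table total, with the same length in every library for 8988 of 8988 genes checked (tolerance 0.1%). That length exceeded the union of exons in GENCODE vM21 for 38 of 46 members, so levels between genes were taken per kb of the longest transcript, a choice made after seeing the data.

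Counts were scaled by TMM (edgeR 4.0.16 in R 4.3.3; factors 1.06 in Th17, 1.08 in Treg, 0.850 in Th0 and 1.03 in naive). Genes with at least 10 counts in 1 of 2 compared libraries were tested for size, with a pseudocount of 1 CPM, which understates ratios of low genes, and with exact conditional (Clopper-Pearson) intervals. Folds carry no pseudocount. All 46 members passed the filter in all 6 comparisons. With 1 library per group no p-value or SD was computed. The calling rule was also run on simulated Poisson counts with known folds. Those counts held no spread between cultures or animals, so the run cannot show how reliable calls from 1 library are. Alternatives were library totals, DESeq2 1.42.0 size factors, upper quartile and pairwise TMM scaling, pseudocounts of 0.1 and 5 CPM, no filter or at least 50 counts, FPKM with a pseudocount of 0.1, and counts thinned to the smallest library. Copies were alignments of at least 300 bases at 95% identity (minimap2 2.31-r1302).

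The members, the lists and the promoters shown were chosen with earlier results of these data known. All members were named, and of each surrounding list at most 4 genes with the largest ratios per comparison. Cdk2 was named in addition, as a marker not called in Th17 and Treg over naive. Scripts ran in Python 3.11.15 with scipy 1.17.1, pandas 2.3.3 and numpy 2.4.6, and plots were drawn with matplotlib 3.10.9.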

Additional observations from a re-analysis of the deposited data

How the results depend on the processing

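Calls and medians were recomputed under 10 alternatives for each of 6 comparisons, and no sign of a called member was reversed. Library totals gave a median log2 ratio of 0.8629 in Th0 over naive and the FPKM of the authors 0.8655. In Th17 over Th0 the members called higher were 1 (Fen1) under library totals, upper quartile scaling and FPKM, those called lower were 6 under library totals and FPKM, and the median was -0.4037 under library totals and -0.4038 under FPKM. In Treg over Th0 the members called lower were 2 under library totals and FPKM and 3 under upper quartile scaling, and the median was -0.0533 under library totals and under FPKM. In Th17 over Treg, Fen1 alone was called lower, so the count was 1, under library totals, upper quartile scaling, FPKM and a pseudocount of 0.1 CPM. Library totals are equivalent to the scaling behind the FPKM, and they moved the median log2 ratio of all genes by -0.24 in Th0 over naive, 0.28 in Th17 over Th0 and 0.31 in Treg over Th0. In those 3 comparisons the shift under upper quartile scaling was -0.12, 0.13 and 0.14. Calls kept under all 5 scalings were 23 of 29 in Th0 over naive, 6 of 7 in Th17 over naive, 13 of 15 in Treg over naive, 6 of 12 in Th17 over Th0 and 3 of 6 in Treg over Th0. Of 276 single ratios per setting, library totals and FPKM each ended 15 calls and added 4, upper quartile scaling ended 8 and added 3, DESeq2 size factors ended 3 and added 3, and a pseudocount of 5 CPM ended 11, among them Cdc6, Gins1, Prim1 and Rfc4 in Treg over naive. Pairwise TMM added 1, a pseudocount of 0.1 CPM added 2, and thinning ended 1 and added 2. No call ended without the count filter or with at least 50 counts. No paired analysis was possible because each group had 1 library and the groups share fewer than 2 replicate numbers. With 1 library per group, depth limits only the counting intervals, and the spread between cultures or animals was not measured.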
